A study of Homo sapiens with 9 samples.

Results

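The genes described here are 10 genes that respond to, or act in, the Wnt/beta-catenin pathway (SP5, AXIN2, LGR5, NKD1, TCF7, LEF1, RNF43, ZNRF3, TBX3 and TSKU), and they were taken by gene symbol from an array study of HepG2 cells. Of these 10, 9 were measured among 17687 named genes, and TCF7, whose symbol the platform annotation pairs with no cluster, was not analysed here. The list was selected on earlier results of the same arrays, in which SP5 was lower and TSKU higher with VitD. For these genes the VitD values are therefore given as a description without p-values. The comparison of VDR with CONT cells was not used in the choice and was tested, although it shares the VDR arrays with the VitD comparison.

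HepG2 is a human cell line from a liver tumour. It carries a CTNNB1 allele that lacks the region through which beta-catenin is marked for breakdown, so that beta-catenin is active in these cells without an added Wnt ligand. All cells were infected with an adenovirus for 48 h and then cultured for 4 h with VitD (calcitriol, the hormonal form of vitamin D) or vehicle. CONT cells were given Ad-C, an adenovirus without insert, and vehicle, which was DMSO. VDR cells were given Ad-VDR, which encodes the human vitamin D receptor, and vehicle. VDR+VitD cells were given the same Ad-VDR together with VitD at 10 nM, also dissolved in DMSO. Each group had 3 arrays from 3 independent experiments, and each experiment gave 1 array of every group. No group with VitD and Ad-C was analysed here, so effects of VitD without added VDR cannot be told apart from those with it. Each array measured a whole culture, in which fewer cells with a transcript and less transcript per cell cannot be told apart.

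In the Wnt/beta-catenin pathway, a Wnt ligand bound by a Frizzled receptor and its co-receptor LRP5 or LRP6 stops a destruction complex, built on AXIN1 and APC, from tagging beta-catenin. The stabilised protein enters the nucleus and joins DNA-bound factors of the TCF/LEF family to switch on target genes. Many of these targets encode brakes on the same pathway, among them AXIN2, NKD1, RNF43 and ZNRF3. In the liver, this signalling is known to maintain the gene programme of hepatocytes around the central vein.

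The values are log2 RMA values, on which a difference of 1 is a doubling, and over all arrays they ran from 2.47 to 18.24 with a lower quartile of 4.46 and a median of 6.17. VDR lay between 6.04 and 6.79 on the CONT arrays, between 17.80 and 17.87 on the VDR arrays and between 17.45 and 17.58 on the VDR+VitD arrays. CYP24A1, the VDR target that breaks down VitD, lay between 6.64 and 7.84 on the CONT arrays and between 5.25 and 6.08 on the VDR arrays. With VitD it lay between 16.38 and 16.44, so both genes matched the labels. Without VitD, CYP24A1 was lower in VDR than in CONT cells (difference -1.60 on the log2 scale, adjusted p = 0.0165 from limma). The group means of 9 measured hepatocyte and hepatoma markers (of 10 listed) were between 13.39 and 17.97. Those of 4 endothelial markers were between 3.52 and 6.28, and those of 5 stellate cell and fibroblast markers between 3.52 and 8.25. Of 5 leukocyte and Kupffer cell markers, LYZ was at 17.56 to 17.64, while the list's median was at 5.98 to 6.11. None of these measured markers was called in any comparison, and HNF4A was not analysed here.

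A gene was called at a Benjamini-Hochberg adjusted p under 0.05 over all 17687 genes and a fold-change over 1.5, from limma fitted to all 9 arrays. With VitD, 4 of the 9 measured genes were called lower than in VDR cells (SP5, AXIN2, RNF43 and LGR5), and TSKU was called higher. The other 4 genes (NKD1, LEF1, ZNRF3 and TBX3) differed by less than 1.5-fold. Over all genes, 4.16% were called in this comparison, and nothing is read from the count because the comparison took part in the choice of the genes. The median difference of the 9 genes was -0.26 on the log2 scale, beside -0.02 over all genes. In VDR against CONT cells limma called none of the 9 genes, where 0.407% of all genes were called. For AXIN2 and RNF43, 2 of the 9, the unadjusted p was under 0.05, as it was for 9.5% of all genes.

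**Figure D1:**
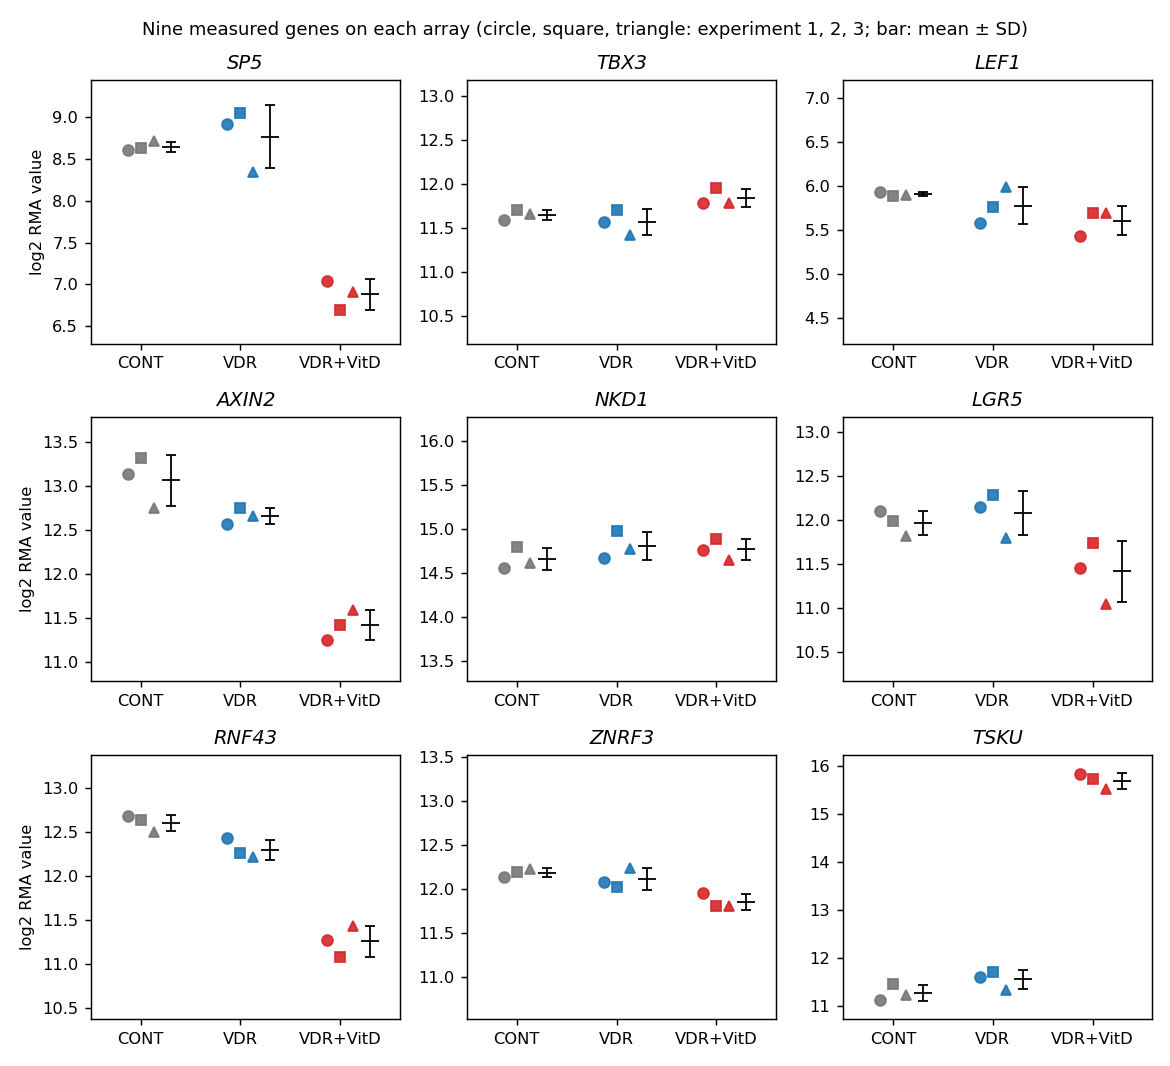
Log2 RMA value of the 9 measured genes on each of the 9 arrays, by group (CONT grey, VDR blue, VDR+VitD red) and by experiment (circle, square and triangle for experiment 1, 2 and 3), with the group mean ± SD beside the points. Each panel has its own axis, which covers about 3 log2 units except for TSKU. The VDR+VitD arrays of SP5 lie between 6.69 and 7.04, below all others, and those of TSKU between 15.51 and 15.83, above all others.

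SP5 is a zinc-finger transcription factor that is a direct target of Wnt/beta-catenin signalling and acts back on the pathway as a repressor of TCF/LEF targets. SP5 was at 8.61, 8.63 and 8.72 on the CONT arrays of experiments 1, 2 and 3, at 8.92, 9.05 and 8.34 on the VDR arrays, and at 7.04, 6.69 and 6.91 on the VDR+VitD arrays. All 3 arrays with VitD were thus below the 6 arrays without it, and the widest spread was in the VDR group. The difference with VitD was -1.89 on the log2 scale (standard error 0.17), a level 3.71-fold lower, and it was -1.88, -2.36 and -1.43 within the 3 experiments. Against CONT cells, SP5 in VDR+VitD cells was lower by 3.42-fold. Without VitD, the VDR and CONT arrays overlapped (difference 0.12, 95% interval -0.25 to 0.49, adjusted p = 0.894 from limma), with 2 experiments up and 1 down.

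The region around the annotated start of SP5 is shown because SP5 had the largest decrease of these genes and because it holds a cluster of matches to the TCF/LEF binding motif. The windows cover 250 bases before and 50 bases after the start, from RefSeq (GRCh38.p14), and windows were found for 4 of the 9 measured genes (SP5, LEF1, RNF43 and TSKU). Capitals mark each CTTTG, the core of the motif, on either strand (CAAAG when it lies on the other strand), and take in the next 2 bases where both are A or T. The start of RNF43 nearest to the gene's outer end and the first of 2 starts of TSKU are given beside it, as a gene lower and a gene higher with VitD.
SP5 (chr2:170715087-170715386, plus strand): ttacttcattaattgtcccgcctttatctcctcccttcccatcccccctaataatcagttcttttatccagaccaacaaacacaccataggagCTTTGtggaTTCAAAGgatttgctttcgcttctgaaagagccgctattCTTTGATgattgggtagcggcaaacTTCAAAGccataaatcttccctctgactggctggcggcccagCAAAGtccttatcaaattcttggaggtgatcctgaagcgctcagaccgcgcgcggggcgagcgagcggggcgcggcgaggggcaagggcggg
RNF43 (chr17:58417485-58417784, minus strand): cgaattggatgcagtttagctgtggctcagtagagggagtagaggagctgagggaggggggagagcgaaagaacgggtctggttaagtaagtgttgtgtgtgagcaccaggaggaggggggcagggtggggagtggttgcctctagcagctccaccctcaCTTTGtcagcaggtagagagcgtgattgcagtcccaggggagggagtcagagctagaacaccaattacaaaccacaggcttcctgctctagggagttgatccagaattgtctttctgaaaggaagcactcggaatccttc
TSKU (chr11:76783106-76783405, plus strand): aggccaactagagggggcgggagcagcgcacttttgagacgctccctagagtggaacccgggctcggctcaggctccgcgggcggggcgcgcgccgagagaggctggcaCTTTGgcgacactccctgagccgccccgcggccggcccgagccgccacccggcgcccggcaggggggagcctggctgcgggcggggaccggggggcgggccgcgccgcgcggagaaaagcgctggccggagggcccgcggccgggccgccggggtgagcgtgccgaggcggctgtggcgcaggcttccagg

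In the SP5 window CTTTG occurred 5 times, of which 3 had A or T at both following bases and 1 read CTTTGAT. The first bases of the 5 matches were at -157, -146, -109, -82 and -42 from the start, counted on the gene's strand. Over 35116 windows of the same length, 47.5% held at least 1 CTTTG and 0.185% held 5 or more, 13.8% held the longer form and 0.179% held it 3 or more times, and 2.62% held CTTTGAT. The cut-offs of 5 and 3 were set at the counts of the SP5 window, which was shown partly for its matches. The shares at these cut-offs are therefore a description and not a test. LEF1 had 1 match of the core alone, each of the 2 RNF43 windows had 1, and TSKU had 1 in its first window and 0 in its second. The LEF1 window (chr4:108166252-108166551), both TSKU windows and the second RNF43 window lie inside the gene. The outer end at the start side is at 108168932 for LEF1 and at 76782280 for TSKU, and no window shown here covers it. The motif bound by VDR with its partner RXR, a direct repeat of the half-site RGKTSA with 3 bases between (R is A or G, K is G or T, S is C or G), was found in none of these windows on either strand, and in 0.251% of all windows. A match is a stretch of letters and not a measured site, and a missing match covers these windows only. No binding was measured in these samples.

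**Figure D2:**
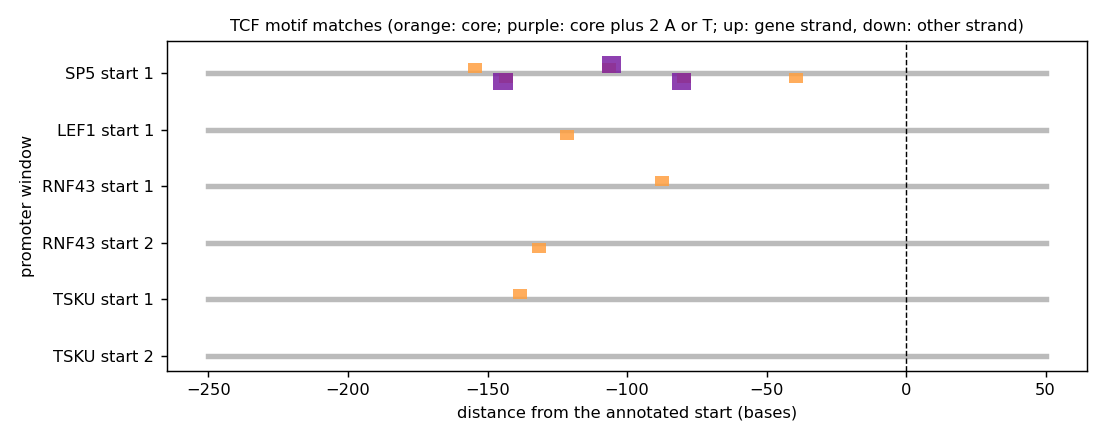
Position of TCF motif matches in the windows around the annotated starts of SP5, LEF1, RNF43 and TSKU (horizontal axis, bases from the start, which is the dashed line). Orange blocks are the 5-letter core and purple blocks the core followed by 2 bases that are A or T, drawn upward on the gene's strand and downward on the other strand. The SP5 window holds 5 matches, and each of the others 0 or 1.

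LEF1, a DNA-bound partner of beta-catenin, was at 5.93, 5.89 and 5.90 in CONT cells, at 5.58, 5.76 and 5.99 in VDR cells and at 5.43, 5.70 and 5.70 in VDR+VitD cells, all below the array median of 6.17. Its difference with VitD was -0.17 (95% interval -0.47 to 0.13), with overlapping groups. Against CONT cells Ad-VDR alone gave -0.13 (adjusted p = 0.838 from limma).

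TBX3 is a T-box repressor that is known as a beta-catenin target in liver tumours. Its values were 11.59, 11.71 and 11.66 in CONT cells, 11.57, 11.71 and 11.42 in VDR cells, and 11.78, 11.95 and 11.78 in VDR+VitD cells. The 3 VitD arrays were above the 3 VDR arrays by 0.27 on the log2 scale (95% interval 0.00 to 0.54), which is 1.21-fold and opposite in direction to SP5. Before rounding, the lower end of the interval was just below 0.00. Like the other intervals with VitD, it is a description and not a test. Ad-VDR alone differed from CONT by -0.09 (adjusted p = 0.894 from limma).

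The intracellular inhibitors did not move alike. AXIN2, a scaffold of the destruction complex whose transcript is widely used as a readout of beta-catenin activity, was at 13.13, 13.31 and 12.75 in CONT cells, at 12.56, 12.74 and 12.65 in VDR cells, and at 11.24, 11.42 and 11.58 in VDR+VitD cells. The 3 groups did not overlap, although the lowest CONT array (12.75) and the highest VDR array (12.74) nearly met. With VitD the level was 2.36-fold lower (difference -1.24, standard error 0.16), by -1.32, -1.32 and -1.07 within the experiments. From CONT to VDR+VitD cells it was 3.14-fold lower. Ad-VDR alone gave -0.41 (95% interval -0.75 to -0.08, lower in 3 of 3 experiments), which did not pass the test over all genes (adjusted p = 0.391 from limma). Over the 9 omissions of 1 array this value ran from -0.57 (without CONT replicate 3) to -0.29 (without CONT replicate 2).

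NKD1, which binds Dishevelled and dampens Wnt signalling, was at 14.56, 14.80 and 14.61 in CONT cells, at 14.67, 14.98 and 14.77 in VDR cells, and at 14.76, 14.89 and 14.65 in VDR+VitD cells. The groups overlapped, and experiment 2 had the highest value in each. The difference with VitD was -0.04 with a 95% interval of -0.33 to 0.25, which is a description and not a test. Ad-VDR alone gave 0.15 (adjusted p = 0.802 from limma), higher in 3 of 3 experiments. Its relative NKD2, from the list of other pathway genes, rose with VitD. It was at 5.87, 5.74 and 6.28 in VDR cells and at 7.86, 7.54 and 7.40 in VDR+VitD cells, a difference of 1.64 on the log2 scale (adjusted p = 1.29e-05 from limma).

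The membrane proteins of the set act at the receptor. RNF43 and ZNRF3 are related ubiquitin ligases that remove Frizzled receptors from the cell surface, and LGR5 is a receptor for R-spondins, the secreted proteins that neutralise these ligases. RNF43 was at 12.68, 12.64 and 12.50 in CONT cells, at 12.43, 12.26 and 12.22 in VDR cells, and at 11.28, 11.08 and 11.43 in VDR+VitD cells. As for AXIN2, the 3 groups did not overlap and the VDR arrays lay in the middle. The level was 2.06-fold lower with VitD (difference -1.04, standard error 0.13), and 2.54-fold lower in VDR+VitD than in CONT cells. Ad-VDR alone gave -0.30 (95% interval -0.59 to -0.02, lower in 3 of 3 experiments, adjusted p = 0.5 from limma).

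ZNRF3 had smaller differences than RNF43. It was at 12.13, 12.19 and 12.22 in CONT cells, at 12.07, 12.02 and 12.24 in VDR cells, and at 11.95, 11.80 and 11.80 in VDR+VitD cells. Its 3 VitD arrays were below all others. The difference with VitD was -0.26 (95% interval -0.53 to 0.01), 1.20-fold, and against CONT cells it was -0.33. Whether the differences of RNF43 and ZNRF3 were unequal was not tested. Ad-VDR alone gave -0.07 (adjusted p = 0.917 from limma).

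LGR5 was at 12.10, 11.99 and 11.82 in CONT cells, at 12.15, 12.29 and 11.80 in VDR cells, and at 11.46, 11.74 and 11.05 in VDR+VitD cells. In each group the array of experiment 3 was the lowest. The VitD arrays lay below the VDR arrays, but the highest of the former (11.74) was close to the lowest of the latter (11.80). Within the experiments the differences were -0.69, -0.55 and -0.75, and the difference over all arrays was -0.66 (standard error 0.18), 1.58-fold. LGR5 stood at the edge of the thresholds, and it was no longer called in 7 of 9 fits that left out 1 array (any CONT array, VDR replicate 1 or 2, VDR+VitD replicate 1 or 3). It was also not called in 3 of 8 other settings, and not against CONT cells (-0.55), except without VDR+VitD replicate 2 (-0.72). Ad-VDR alone gave 0.11 (adjusted p = 0.906 from limma).

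TSKU (tsukushi) encodes a secreted leucine-rich proteoglycan. It is known from chick as an inhibitor that binds the receptor Frizzled 4, and in mouse as a protein that the liver secretes, rather than as a usual readout of beta-catenin. TSKU was at 11.14, 11.46 and 11.23 in CONT cells, at 11.61, 11.72 and 11.34 in VDR cells, and at 15.83, 15.73 and 15.51 in VDR+VitD cells. The arrays with VitD were far above the 6 others, whose CONT and VDR values overlapped. The difference with VitD was 4.13 (standard error 0.15), 17.5-fold, and 4.22, 4.01 and 4.17 within the experiments. Against CONT cells the level was 21.3-fold higher. Ad-VDR alone gave 0.28 (95% interval -0.04 to 0.60, higher in 3 of 3 experiments, adjusted p = 0.59 from limma).

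**Figure D3:**
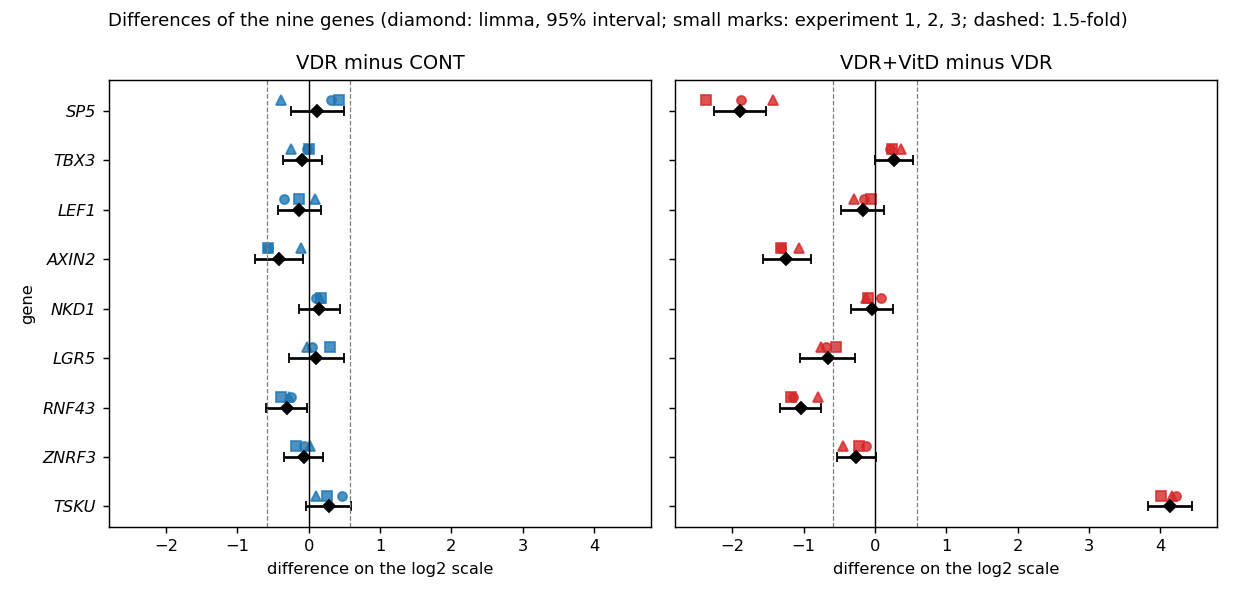
Differences of the 9 genes on the log2 scale (horizontal axis) for VDR minus CONT and for VDR+VitD minus VDR. Diamonds and bars are the limma estimate with its 95% interval, small marks the difference within experiment 1 (circle), 2 (square) and 3 (triangle), and dashed lines a 1.5-fold change. With VitD, SP5, AXIN2, RNF43 and LGR5 lie left of the dashed line and TSKU at 4.13, while for VDR minus CONT all estimates lie between -0.41 and 0.28.

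Read across genes, 6 of the 9 were lower with VitD in 3 of 3 experiments (SP5, AXIN2, RNF43, LGR5, ZNRF3 and LEF1), 2 were higher in 3 of 3 (TSKU and TBX3), and NKD1 was mixed. The share of all genes with the same direction in 3 of 3 experiments was not computed, so these directions are a description only. The 3 arrays of each group did not overlap for 7 of the 9 genes between VDR+VitD and VDR cells (18.4% of all genes), and for 8 of 9 between VDR+VitD and CONT cells (21.7% of all genes). Between VDR and CONT cells this held for AXIN2 and RNF43, 2 of 9, beside 13.1% of all genes. In VDR+VitD against CONT cells, TSKU was called higher and SP5, AXIN2 and RNF43 lower, where 4.81% of all genes were called. That comparison and the one with VDR cells share the VDR+VitD arrays, so they are not separate evidence. Nothing is read from these counts with VitD, because the comparison of VDR+VitD with VDR cells took part in the choice of the genes.

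Genes whose pattern over the 9 arrays was most like that of a member were found by the root mean square difference of log2 values, each gene centred at its own mean. For SP5 these were DUSP6, a phosphatase that switches off ERK (0.22), and PROX1 and FOXA2, transcription factors of the hepatocyte lineage (0.23 each). For AXIN2 they were ID2, an inhibitor of helix-loop-helix factors (0.17), CBLB, a ubiquitin ligase (0.18), and PDE4D, a cyclic AMP phosphodiesterase (0.19). For TSKU they were SLC6A12, the betaine transporter (0.19), RTN4R, the Nogo receptor (0.27), and CABLES2 (0.29). No other member was among the 3 genes closest to SP5, AXIN2 or TSKU. The largest part of each of these patterns was the VitD difference, which took part in the choice of the genes. The likeness is therefore a description, and shared regulation was not tested.

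Of 135 further genes of the pathway and of liver zonation, in 8 lists that hold none of the 10 genes, 127 were measured. With VitD against VDR cells, 10 of these were called higher and 6 lower, where 4.16% of all genes were called, and 111 did not pass the test (median difference 0.05 beside -0.02 over all genes). Against CONT cells, 8 were called higher and 7 lower in VDR+VitD cells, beside 4.81% of all genes. The lists were chosen with earlier results of these data known, so nothing is read from these counts with VitD. The p-values of list genes with VitD are likewise given as a description. In VDR against CONT cells limma called none of the 127, and 12 had an unadjusted p under 0.05, beside 9.5% of all genes. CTNNB1, which encodes beta-catenin, was at 14.02 ± 0.13, 13.98 ± 0.06 and 13.96 ± 0.08 (SD, n = 3 each) in CONT, VDR and VDR+VitD cells, and its difference with VitD was -0.02 (95% interval -0.29 to 0.25, adjusted p = 0.971 from limma). The arrays measure transcripts, and neither the beta-catenin protein nor its activity was measured.

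Among 19 measured Wnt ligands and genes for their release, WNT11 alone was called with VitD. It was dim, with 4.39, 4.50 and 4.78 in VDR cells and 5.77, 6.03 and 4.94 in VDR+VitD cells, and it rose by 1.02 (adjusted p = 0.0134 from limma). It lost its call without VDR replicate 1 or 2 or VDR+VitD replicate 1 or 2. Of 20 measured receptors, co-receptors and R-spondins, FZD4 and LGR4 were called lower and none was called higher, and the median difference of the list was 0.10. The largest positive difference among the uncalled ones was that of FZD2, at 0.58 (adjusted p = 0.164 from limma). FZD4, a Frizzled receptor, was at 10.79, 10.72 and 11.19 in VDR cells and at 9.97, 9.97 and 10.02 in VDR+VitD cells, a difference of -0.91 (adjusted p = 8.4e-04 from limma). LGR4, a relative of LGR5, fell by 0.68 (adjusted p = 0.0178 from limma) and its call was lost without VDR replicate 1 or VDR+VitD replicate 1 or 2. Against CONT cells LGR4 was not called (-0.46, adjusted p = 0.123 from limma).

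Of 16 measured secreted and membrane inhibitors, DKK1 fell and KREMEN1, a receptor for Dickkopf proteins, rose with VitD. DKK1, a secreted inhibitor of LRP5 and LRP6 and itself a beta-catenin target, was at 16.43, 16.34 and 16.26 in CONT cells, at 15.90, 15.82 and 15.81 in VDR cells, and at 15.11, 15.22 and 15.36 in VDR+VitD cells. These 3 groups did not overlap, with VDR cells in the middle as for AXIN2 and RNF43. The difference with VitD was -0.61 (adjusted p = 0.00795 from limma, fold-change below 1.5 without VDR+VitD replicate 1), that from CONT to VDR+VitD cells -1.11 (adjusted p = 3.61e-05), and that with Ad-VDR alone -0.50 (adjusted p = 0.122). KREMEN1 rose by 0.60 (adjusted p = 0.0324 from limma), a call lost without any of the 3 VDR arrays or VDR+VitD replicate 2 or 3. APCDD1, a membrane inhibitor and Wnt target, was called against CONT cells only, with -1.20 (adjusted p = 0.00172 from limma) beside -0.51 against VDR cells (adjusted p = 0.226). NOTUM, a secreted enzyme that inactivates Wnt ligands and a target gene of the pathway, had a difference of -0.10 with VitD (adjusted p = 0.815 from limma).

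Of 15 measured genes of Dishevelled and the destruction complex, NKD2 was the 1 called. AXIN1, the constitutive relative of AXIN2, had a difference of -0.25 (adjusted p = 0.392 from limma), and APC of -0.45 (adjusted p = 0.07). Among 17 measured genes of beta-catenin, TCF factors and co-factors, 2 rose and 2 fell with VitD. BCL9, which tethers co-activators to beta-catenin, fell by 0.80 (adjusted p = 0.00761 from limma). The co-repressors of TCF factors were split, since TLE4 fell by 0.80 (adjusted p = 0.00169) while TLE1 and TLE3 rose by 0.62 (adjusted p = 0.0126) and 0.61 (adjusted p = 0.0401). TLE1 was not called without VDR replicate 3 or VDR+VitD replicate 2, and TLE3 not in 8 of 9 fits without 1 array (all but that without VDR replicate 2). Against CONT cells, BCL9 (-0.53, adjusted p = 0.0757 from limma) and TLE1 (0.29, adjusted p = 0.3) were not called. TLE4 and TLE3 were called there too, with -1.03 and 0.75. TCF7L2, another TCF factor, differed by 0.14 with VitD (adjusted p = 0.873), and TCF7L1 was at 3.50 to 3.59 in the group means, under the lower quartile of the arrays.

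**Figure D4:**
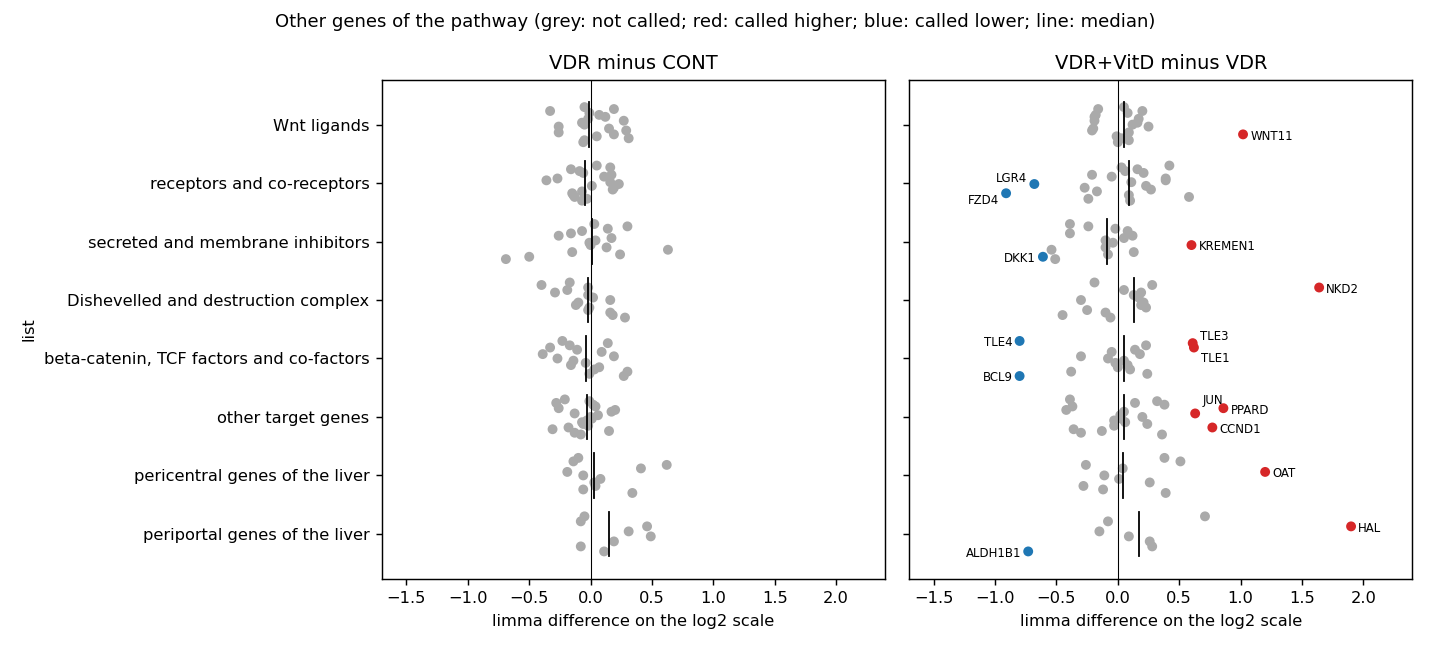
Limma difference on the log2 scale (horizontal axis) of 127 further genes in 8 lists (rows), for VDR minus CONT and for VDR+VitD minus VDR. Each dot is a gene, grey where it was not called, red where called higher and blue where called lower, and the black line is the median of the list. No gene was called in the first panel, and 10 higher and 6 lower in the second.

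Of 21 measured other target genes of the pathway, 3 were called higher with VitD and none was called lower. CCND1, which encodes cyclin D1, was at 13.38, 13.56 and 13.42 in VDR cells and at 14.18, 14.28 and 14.22 in VDR+VitD cells, and rose by 0.77 (adjusted p = 9.68e-04 from limma). PPARD, a nuclear receptor, rose by 0.86 (adjusted p = 0.00651), and JUN, a subunit of AP-1, by 0.63 (adjusted p = 0.0477), a call that was lost in 7 of 9 fits without 1 array (all but those without CONT replicate 3 or VDR replicate 2). Against CONT cells, CCND1 was called (0.59), while PPARD (0.61, adjusted p = 0.052 from limma) and JUN (0.50, adjusted p = 0.116) were not. MYC had a difference of -0.42 (adjusted p = 0.199 from limma), lower in 3 of 3 experiments, and SOX9 of 0.38 (adjusted p = 0.103). TNFRSF19 and BMP4 had differences of -0.39 (adjusted p = 0.174) and -0.36 (adjusted p = 0.21), also lower in 3 of 3 experiments. BMP4 and TNFRSF19 were called lower against CONT cells, with -0.67 and -0.59 (adjusted p = 0.00874 and 0.021 from limma), calls that were lost without VDR+VitD replicate 1 for BMP4 and without CONT replicate 1 or 2 or VDR+VitD replicate 1 or 2 for TNFRSF19.

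In the mouse liver, beta-catenin is known to hold up pericentral genes and to keep periportal genes low. Of 11 measured pericentral genes, OAT, an enzyme of ornithine breakdown, rose with VitD by 1.20 (adjusted p = 7.71e-05 from limma), from 11.17, 11.61 and 11.16 in VDR cells to 12.48, 12.46 and 12.59. GLUL, which encodes glutamine synthetase and is the classical pericentral target, had a difference of 0.26 (adjusted p = 0.393 from limma). Among the uncalled genes of this list, SLC1A2 had the highest difference, at 0.51 (adjusted p = 0.0508 from limma). CYP7A1 had the lowest, at -0.28 (adjusted p = 0.417), and the median of the list was 0.04. CYP2E1 was dim at 4.58 to 4.75 in the group means (difference -0.12, adjusted p = 0.812). CYP1A2 was called against CONT cells only, with 0.73 (adjusted p = 0.0199 from limma) beside 0.39 against VDR cells (adjusted p = 0.29). That call was lost without CONT replicate 1 or VDR+VitD replicate 1. Of 8 measured periportal genes, HAL, the first enzyme of histidine breakdown, rose by 1.90 (adjusted p = 4.08e-04 from limma), while ALDH1B1, a mitochondrial aldehyde dehydrogenase, fell by 0.73 (adjusted p = 0.00677) and 6 were not called. Of these 6, PCK1 had the highest difference, at 0.71 (adjusted p = 0.0584 from limma), and CPS1 the lowest, at -0.15 (adjusted p = 0.736).

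For VDR against CONT cells, where none of the 8 lists had a called gene, the gene with the lowest p in each list was WNT8A (-0.33), LRP5 (-0.36), DKK1 (-0.50), TNKS (-0.40), SMARCA4 (-0.39), BMP4 (-0.31), RHBG (0.62) and CDH1 (0.49), with adjusted p-values between 0.122 and 0.535 from limma.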

How the data were processed

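HepG2 cells in 3 groups of 3 arrays (Clariom S) were mapped to group and experiment from the sample titles. The deposited table holds log2 values of 21448 transcript clusters, which the authors made by RMA in Transcriptome Analysis Console 4.0.2 and rounded to 2 decimals. Quantile normalization hides a shift shared by most genes, and dim or very bright values can understate changes. The platform annotation gave 17709 clusters 1 symbol and left 3739 unnamed. Clusters of the same symbol were averaged, which gave 17687 genes. The genome build was not given in the sources used here.

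All 9 arrays were fitted across all genes with limma 3.58.1 in R 4.3.3 (group as the only factor, Benjamini-Hochberg over all genes). The steps were tested on simulated data with known changes. The experiment number pairs the samples: deviations from group means correlated across genes with r of 0.042 to 0.145 in the 9 pairs of the same experiment and -0.0959 to 0.0102 in the other 18. The fit without the experiment was kept because the study's methods name none. Alternatives were the experiment as a block, only the 6 arrays compared, an intensity trend, filters on variation and intensity, a test against a fold-change of 1.5, median centring, single clusters, and leaving out each array.

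The members, lists and rules were chosen with earlier results of these data known. Named are all members, CTNNB1, up to 4 called genes of each list and comparison or, with none, the gene with the lowest p, and the 3 genes most like SP5, AXIN2 and TSKU. MYC, SOX9, NOTUM, AXIN1, APC, TCF7L1, TCF7L2, GLUL and CYP2E1 were added for their roles after their values were seen. FZD2, SLC1A2, CYP7A1, PCK1 and CPS1 were added because of their values, as the highest or lowest uncalled genes of their lists. Promoter windows were from RefSeq (GRCh38.p14).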

Additional observations from a re-analysis of the deposited data

How the results depend on the processing

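The experiment as a replicate block left the counts at 0, 5 and 4 called members and 0, 16 and 15 called pathway genes for VDR against CONT, VDR+VitD against VDR and VDR+VitD against CONT. With the block, 140 of all genes were called in VDR against CONT cells in place of 72, which is 0.792% in place of 0.407%. The test against a fold-change of 1.5 gave 3 members with VitD against VDR cells, where RNF43 and LGR5 were no longer called and nothing is read from the count, and 3 pathway genes against either VDR or CONT cells. Its stricter hypothesis makes it call fewer genes. Over the 9 omissions of 1 array, members called ranged from 4 to 5 in each VitD comparison, and pathway genes from 11 to 15 against VDR and from 10 to 16 against CONT cells. In VDR against CONT cells no member and no pathway gene was called under any alternative. SP5 in that comparison turned to -0.02 without VDR replicate 2 (range 0.33 to -0.02 over the omissions), and NKD1 with VitD against VDR cells to 0.05 without VDR replicate 2 and 0.02 without VDR+VitD replicate 3 (range -0.11 to 0.05). The 3 arrays per group limit the precision.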
